A study of Mus musculus with 12 samples.

Results

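Cytosolic ribosomal protein genes encode the proteins that, with ribosomal RNA, form the large and small subunits of the ribosome. Members were taken by name: gene rows of the count files whose RefSeq symbol follows the Rpl or Rps pattern, or is Rplp0, Rplp1, Rplp2 or Rpsa, and whose RefSeq type is protein-coding. The rule found 84 genes of the 27179 in the files, comprising 46 large-subunit genes, 31 small-subunit genes and 7 paralogs whose symbol is that of another member followed by l or l1. Another 2 symbols that follow the pattern, Rpl6l and Rps4l, are pseudogenes in RefSeq and were left out.

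The study compared sorted thymic epithelial cells (TECs) of mice with and without Hoil, the gene now named Rbck1, which encodes a subunit of the linear ubiquitin chain assembly complex. It used RNA sequencing of 12 libraries, 3 in each of 4 groups, on the C57BL/6 background. Control mice (Foxn1cre+/+ Hoillox/lox) carried the floxed gene without the Cre transgene, and deficient mice (Foxn1creT/+ HOILlox/lox) carried the same floxed gene with Cre driven by Foxn1, a gene of the thymic epithelial lineage. Both genotypes gave cortical cells (cTECs: CD45-, TER-119-, CD31-, EpCAM+, MHC class II+, Ly51+, UEA1-) and medullary cells with high MHC class II (mTEChi: Ly51-, UEA1+). The labels call 10 libraries male and 2 female, the latter being replicate 3 of both deficient groups. They do not say whether replicates were separate animals, so p-values measure only the spread between these libraries, and ages were not given in the sources used here. In bulk libraries, fewer cells of a type and less RNA per cell cannot be told apart.

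Ribosomal proteins are needed in near-equal number per ribosome, and their genes are among the most strongly transcribed in growing cells. Their mRNAs typically begin with a tract of pyrimidines, the 5′ TOP motif, through which the mTORC1 kinase and the RNA-binding protein Larp1 adjust their translation together. In thymic epithelium, cortical cells support early thymocytes and positively select them, whereas mature medullary cells express many tissue-restricted genes.

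The 7 start regions below are shown because they belong to genes called in a comparison of deficient with control cells, and because the pyrimidine tract is the sequence feature the family is known for. Each runs from 40 bases before to 20 bases after a RefSeq transcript start, so that base 41 is the start itself, and was read 5′ to 3′ on the gene's strand from the GRCm38.p6 promoter table. They lie at chr7:3704001-3704060 (Rps9), chr8:123102310-123102369 (Rpl13), chr4:86857348-86857407 (Rps6, minus strand), chr5:115559427-115559486 (Rplp0), chr17:24720023-24720082 (Rps2), chr10:128549149-128549208 (Rpl41, minus strand) and chr9:66946046-66946105 (Rps27l, the first of 2 starts in the table). Capitals mark the longest unbroken run of C and T in each window, which in Rps27l and Rpl41 is the first of 2 equally long runs.
Rps9: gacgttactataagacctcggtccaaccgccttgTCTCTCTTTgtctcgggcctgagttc
Rpl13: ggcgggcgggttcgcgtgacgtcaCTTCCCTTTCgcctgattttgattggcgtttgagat
Rps6: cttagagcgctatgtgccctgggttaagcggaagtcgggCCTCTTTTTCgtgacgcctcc
Rplp0: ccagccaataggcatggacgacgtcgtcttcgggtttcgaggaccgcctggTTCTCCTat
Rps2: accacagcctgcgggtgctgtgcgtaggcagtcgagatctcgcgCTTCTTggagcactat
Rpl41: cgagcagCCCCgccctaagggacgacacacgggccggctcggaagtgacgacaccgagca
Rps27l: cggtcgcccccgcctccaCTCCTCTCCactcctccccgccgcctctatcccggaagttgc

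The marked run crossed the annotated start in Rps9 (bases 35 to 43) and in Rps6 (bases 40 to 49). It lay before the start in Rpl13, Rpl41 and Rps27l, and after it in Rplp0 and Rps2. The longest run was 10 bases in Rpl13 and Rps6 and 4 bases in Rpl41. A promoter entry was present for 64 of the 84 members, and Rplp1 and Rps20 had none. A run of 8 or more pyrimidines on the gene's strand was found in this window in 57.8% of those 64 members and in 27.0% of the 17491 protein-coding genes of the table. In the whole 300-base entries, searched on both strands, the letters CTTCCG occurred in 65.6% of members and 23.5% of all genes. The letters CTTTCC occurred in 51.6% of members and 28.8% of all genes, and the 2 motifs can overlap by sharing bases. CACGTG (9.38% against 8.91%) and TATAAA (12.5% against 14.8%) occurred at similar shares in both.

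Total counts ran from 7941217 to 14274333 per library. The targeted gene Rbck1 was at 183, 236 and 221 CPM (the count scaled by its library's total count) in control cTECs and at 22.0, 32.99 and 22.5 CPM in deficient cTECs. In mTEChi it was at 114, 128 and 108 CPM in controls and 10.95, 11.7 and 23.3 CPM in deficient cells, so every library matched its genotype label. Summed cTEC markers ran from 26410 to 34396 CPM in control cTECs, from 13056 to 13575 CPM in deficient cTECs and from 1534 to 2038 CPM in mTEChi. Control mTEChi replicate 1 stood apart: 8.93% of its counts were mitochondrial transcripts, against 0.861% to 4.35% in the other 11 libraries.

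Together the 84 genes took less than 1% of the counts in every library, with the lowest shares in control cTECs. The share was 0.420%, 0.335% and 0.472% in control cTECs and 0.573%, 0.541% and 0.592% in deficient cTECs. It was 0.856%, 0.540% and 0.605% in control mTEChi and 0.600%, 0.542% and 0.641% in deficient mTEChi. The 3 deficient cTEC libraries were all above the 3 control cTEC libraries, whereas the mTEChi groups overlapped. Group means were 0.409% ± 0.0694, 0.569% ± 0.0257, 0.667% ± 0.167 and 0.595% ± 0.0499 in that order (SD, n = 3), and without replicate 1 the mean of control mTEChi was 0.572%.

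**Figure D1:**
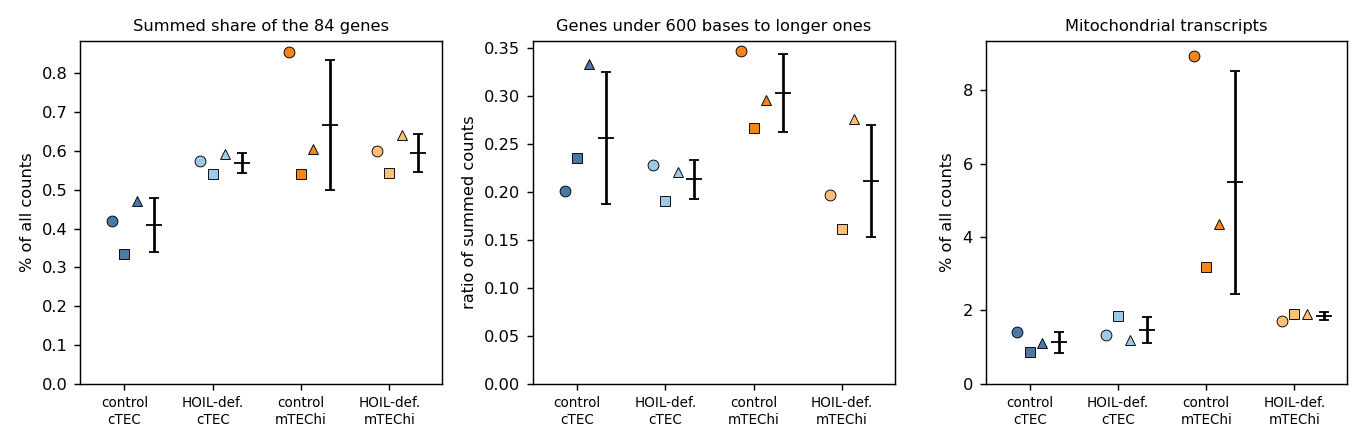
Each point is 1 library (circle, square and triangle for replicates 1, 2 and 3) and each bar is the group mean with its SD over 3 libraries. The left panel plots the summed share of the 84 genes in percent of counts, the middle panel the summed counts of members under 600 bases over those of longer members, and the right panel the mitochondrial share in percent; control mTEChi replicate 1 is the highest library in all 3 panels.

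The large-subunit genes together held more counts than the small-subunit genes in all 12 libraries, and the balance differed by cell type. As 46 genes are summed against 31, this does not mean more counts per gene. The ratio of large to small subunit counts was 1.47, 1.52 and 1.45 in control cTECs and 1.42, 1.44 and 1.48 in deficient cTECs. It was 1.17, 1.18 and 1.17 in control mTEChi and 1.24, 1.35 and 1.19 in deficient mTEChi. All 6 mTEChi libraries were below all 6 cTEC libraries, and each deficient mTEChi library was above each control mTEChi library. The same libraries differed in how short and long members compared, since members under 600 bases gave 0.201, 0.235 and 0.334 counts per count of longer members in control cTECs and 0.229, 0.191 and 0.221 in deficient cTECs. In mTEChi that ratio was 0.348, 0.267 and 0.296 in controls and 0.197, 0.162 and 0.276 in deficient cells. Genes outside the family moved too: those under 1000 bases held 8.88% to 11.3% of counts in control cTECs, 11.01% to 11.6% in deficient cTECs, 15.8% to 19.7% in control mTEChi and 13.6% to 14.9% in deficient mTEChi. The members are short, with a median deposited length of 706.5 bases against 1976 for all genes in the files and 33 members under 600 bases.

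Although the proteins are needed in near-equal number, the measured levels of the subunit genes spanned a 101-fold range. Levels of different genes were compared per length, as the count over deposited length scaled by the sum of such values in its library (a level like TPM), and averaged over the 4 group means. Among the highest were Rpl4 (680 TPM-like units), which lines the peptide exit tunnel, Rps14 (498) and Rps9 (489), the last near the mRNA entry of the small subunit. Rpl4 was at 608 ± 36.7, 855 ± 61.0, 530 ± 70.3 and 725 ± 65.2 TPM-like units in control cTECs, deficient cTECs, control mTEChi and deficient mTEChi. Rps9 was at 277 ± 52.1, 507 ± 32.98, 579 ± 134 and 592 ± 4.09 TPM-like units in the same order (SD, n = 3 in each). Rpl4 was thus above Rps9 beyond their SDs in both cTEC groups and in deficient mTEChi, while in control mTEChi their values lay within their SDs. The lowest tested members were Rps15a (6.76), Rps28 (12.2) and Rps12 (12.4). The deposited length of Rps15a is 5136 bases and its counts were divided by it, so the range rests partly on that length.

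Sequence shared with other genes moved with these levels. A 75-base window, the read length, was counted as shared where it also occurred exactly in a transcript of another gene, pseudogenes included. Over the 77 subunit genes the median member shared 50.3% of its windows. Rpl5 shared 92.5% and Rpl10 91.9%, whereas Rps3 shared none. All 10 subunit genes with the highest level shared under 50%, and the median level was 85.3 TPM-like units in the 38 genes that shared under 50% and 54.8 in the other 39. Across these 77 genes, which are measured in the same libraries and are not independent, Pearson's r between log2 level and share was -0.33. Spearman's rho between level and share was -0.32. How the authors' counting treated reads that match several genes was not given in the sources used here, and its part in the levels was not tested. The 34 rows that RefSeq names as pseudogenes of these genes held 422 to 822 CPM per library against 3346 to 8562 CPM in the 84 members, or 8.52% to 11.2% of both together. These rows were taken by symbol, so any pseudogene under another name is not counted. For example, 64 pseudogenes share windows with Rpl7a, and no row named for it is among the 34.

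**Figure D2:**
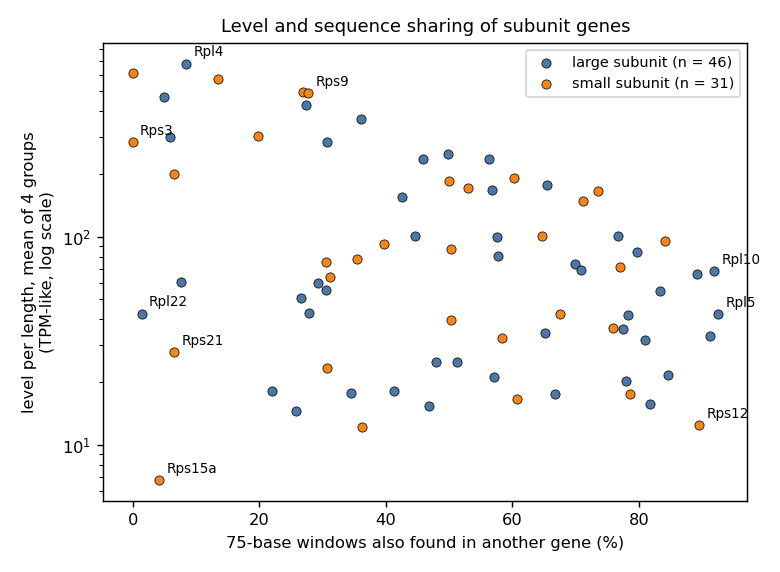
Each point is 1 of 77 subunit genes (46 large, 31 small); the horizontal axis is the percentage of its 75-base windows found exactly in another gene's transcript, and the vertical axis is its level per length, averaged over the 4 groups, in TPM-like units on a log scale. Rpl4 lies at the upper left, the 10 highest genes all share under 50%, and Rps15a, the lowest point, has a deposited length of 5136 bases.

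Over the 12 libraries most members varied together. The log2 CPM of a member correlated with the summed log2 CPM of the others with a median r of 0.84, and 74 of the 81 tested members had an r above 0.5. The lowest values belonged to Rpl7l1 (-0.44), Rpl5 (-0.0093) and Rpl22 (0.18). Outside the family, 6287 genes with a mean log2 CPM of at least 5 were ranked by their correlation with the summed members over the 12 libraries. The 5 most alike were Gm9385 (r = 0.96), Rpl17-ps10 (0.95), 1810009A15Rik (0.94), Gm15501 (0.94) and Nedd8 (0.94), of which Rpl17-ps10 is named as a ribosomal protein pseudogene. All 5 are short, from 556 to 677 bases. These correlations describe libraries that share depth and length composition and were not tested.

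The first comparison asked what Hoil loss did to the family in the cortex. Of 81 members that passed the filter on low counts, 5 were called higher (6.17%) and 0 lower by edgeR's quasi-likelihood test with Benjamini-Hochberg adjustment over 19398 genes, called under 0.05. Over all tested genes 6.06% were called higher and 6.02% lower, so the share of members called higher was near that of all genes. The members' log2 fold changes leaned upward, 68 of 81 being above 0 with a median of 0.31, against a median of -0.02 over all tested genes. That median was 0.16 without control replicate 2 and 0.52 without control replicate 3. At an unadjusted p under 0.05, 19 members were higher and 0 lower, and DESeq2 and limma-voom called 12 and 5 higher and 0 lower. Shares of all genes are not given for an unadjusted p, DESeq2 or limma-voom, here or in the comparisons below. Such counts therefore lack a baseline. The CPM of the deficient and control libraries did not overlap in 36 members, all higher (44.4%), against 15.9% of all tested genes higher and 12% lower.

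Rps9, a small-subunit protein near the mRNA entry, changed most among the called genes. It was at 127, 80.2 and 119 CPM in control cTECs and 192, 207 and 217 CPM in deficient cTECs. All 3 deficient libraries were above all 3 controls (log2 fold change 0.83, SE 0.22, edgeR adjusted p = 0.027). Rps9 lies at chr7:3703954-3706897 in GRCm38.

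Rpl13, a large-subunit gene at chr8:123102350-123105244, was at 33.9, 24.7 and 29.2 CPM in control and 47.2, 54.9 and 55.1 CPM in deficient cTECs. The groups did not overlap, and the log2 fold change was 0.75 (SE 0.20, edgeR adjusted p = 0.028). Of its windows 79.6% occur in other genes, so its counts are uncertain.

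Rps6, the small-subunit substrate of the S6 kinases downstream of mTORC1, lies at chr4:86854099-86857367. It was at 57.1, 38.4 and 56.9 CPM in control and 81.3, 86.2 and 89.7 CPM in deficient cTECs. Every deficient library was higher (log2 fold change 0.66, SE 0.19, edgeR adjusted p = 0.0353), and 84.1% of its windows are shared.

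Rplp0, the base of the acidic stalk that recruits translation factors, lies at chr5:115559467-115563729. It was at 258, 192 and 240 CPM in control and 361, 347 and 372 CPM in deficient cTECs. The groups were apart, and the log2 fold change was 0.56 (SE 0.16, edgeR adjusted p = 0.0358).

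Rps2, another protein of the mRNA entry, lies at chr17:24718121-24721927. It was at 77.2, 59.8 and 72.0 CPM in control and 112, 106 and 105 CPM in deficient cTECs. Again the groups did not overlap (log2 fold change 0.54, SE 0.16, edgeR adjusted p = 0.0468), and 71.1% of its windows are shared.

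The 5 called genes are all 600 bases or longer, and the direction differed by length. Among 48 tested members of 600 bases or more, 47 had a log2 fold change above 0, with a median of 0.46. Among 33 shorter members, 21 were above 0, with a median of 0.20. Across the 81 members the log2 fold change and log2 length had r = 0.38 and rho = 0.48. Large-subunit genes (2 called of 46, median 0.36) and small-subunit genes (3 of 31, median 0.28) had similar medians. The 5 calls were kept when the trend of counts with gene length was removed from each library, at log2 fold changes of 0.44 (Rps2) to 0.76 (Rps9), and Rps4x was then also called (0.55, adjusted p = 0.0357). In that fit 6 of 81 members were called higher and 0 lower, and the share of all genes is not given for it.

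**Figure D3:**
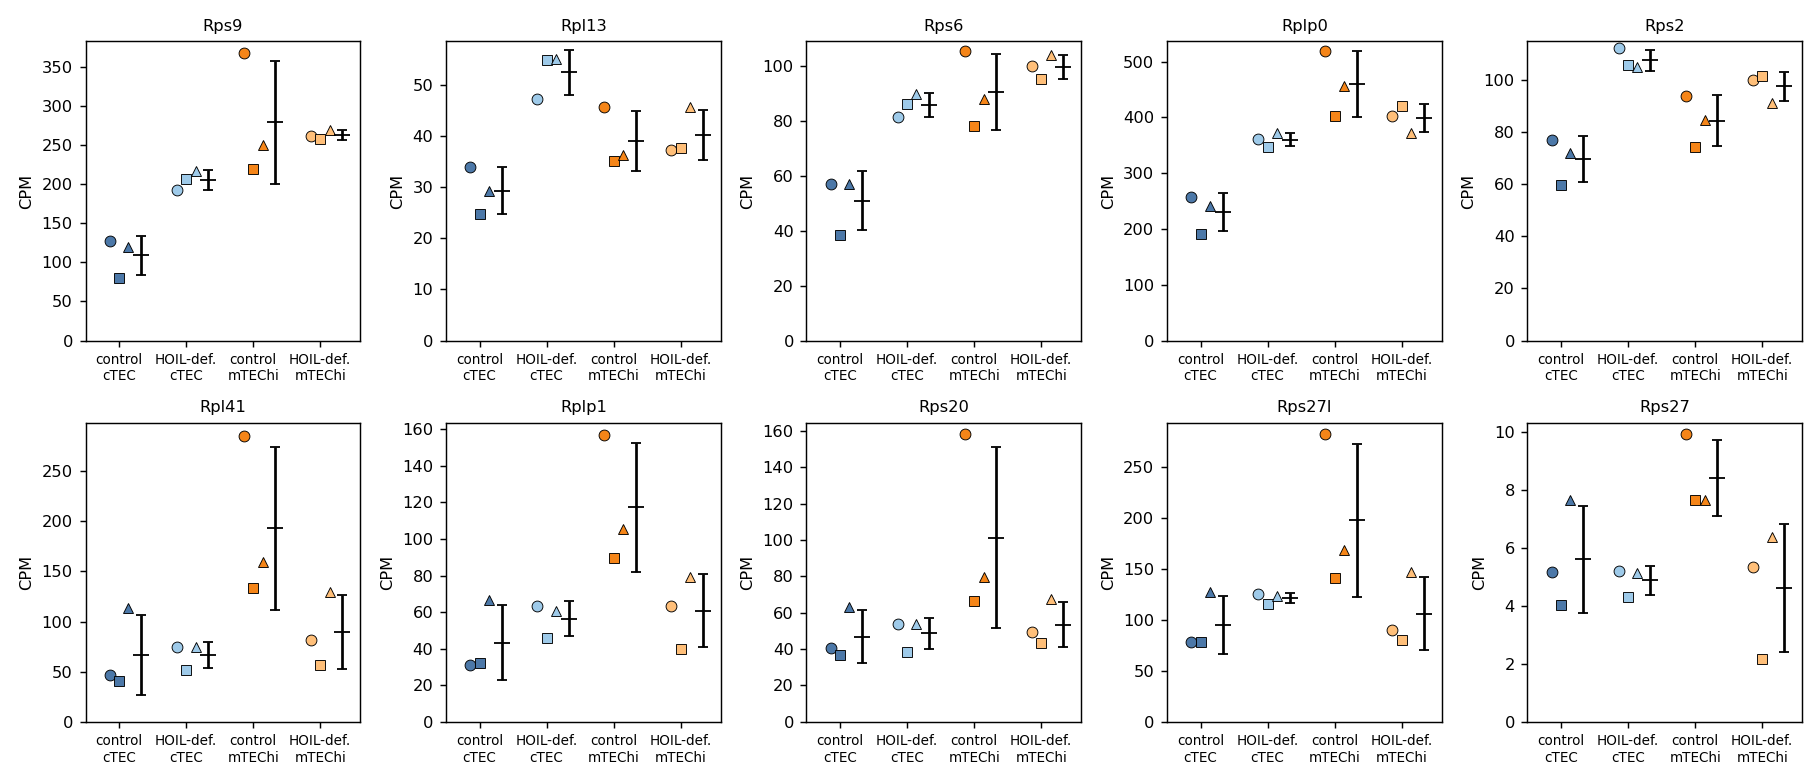
CPM per library of the 9 members called between deficient and control cells, and of Rps27, the partner of Rps27l; each point is 1 library (circle, square and triangle for replicates 1, 2 and 3), each bar the group mean with its SD over 3 libraries. In the first 5 panels all deficient cTEC libraries are above all control cTEC libraries, and in the panels of Rpl41, Rplp1, Rps20 and Rps27l control mTEChi replicate 1 is the highest point.

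The calls in cTECs depended on single libraries. The share of all genes is not given for the fits with libraries left out. None of the 5 was called without control replicate 2, control replicate 3, deficient replicate 2 or deficient replicate 3, when 8, 23, 16 and 14 members were higher at an unadjusted p under 0.05; without deficient replicate 1 there were 2 calls, and with male libraries alone 0 (10 at an unadjusted p under 0.05). Other cells also differed between these groups: thymocyte markers summed to 1050 to 3790 CPM in control and 432 to 843 CPM in deficient cTECs, 11 of 12 being called lower with none at 0. Fibroblast and pericyte markers summed to 151 to 1374 CPM in control and 2572 to 3681 CPM in deficient cTECs, 5 of 9 being called higher, and endothelial markers to 21.5 to 40.98 and 77.6 to 219 CPM, 6 of 7 being called higher. The cTEC markers summed to 26410 to 34396 CPM in control and 13056 to 13575 CPM in deficient cTECs, all 7 being called lower with a median log2 fold change of -1.32. Of 5 genes of thymic epithelium, 2 were called higher and 0 lower. The called genes were the keratin genes Krt14 (2.73, edgeR adjusted p = 2.78e-05) and Krt5 (1.57, edgeR adjusted p = 0.0298), typical of medullary cells. Foxn1 (-0.61, edgeR adjusted p = 0.142), Krt8 (-0.15, edgeR adjusted p = 0.653) and Epcam (0.03, edgeR adjusted p = 0.95) were not called. Of 7 mTEChi markers 1 was called higher (Tnfrsf11a, 0.95) and 1 lower (Cd40, -0.62), with a median of -0.62. The part of these markers in the members' values was not tested.

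In mTEChi the members leaned the other way. The edgeR test called 4 of 81 lower (4.94%) and 0 higher, against 8.59% lower and 11.3% higher over all genes. Of the 81 log2 fold changes 69 were below 0, with a median of -0.40 against -0.03 over all tested genes. At an unadjusted p under 0.05, 11 were lower and 1 higher, while DESeq2 called 7 lower and 0 higher and limma-voom 3 lower and 1 higher. The share of all genes is not given for these counts. The libraries of the 2 groups did not overlap in 8 members that were lower (9.88%) and 2 that were higher (2.47%), Rpl3 and Rpl7l1, against 20.6% and 23.8% of all tested genes.

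The 4 called genes are all under 600 bases. Rpl41, which encodes the smallest ribosomal protein, lies at chr10:128548110-128549168. It was at 286, 134 and 160 CPM in control mTEChi and 82.1, 56.8 and 129 CPM in deficient mTEChi. The groups did not overlap, and the log2 fold change was -1.20 (SE 0.40, edgeR adjusted p = 0.0495).

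Rplp1, an acidic protein of the stalk that stands on Rplp0, lies at chr9:61913283-61914510. It was at 157, 89.8 and 105 CPM in control and 63.2, 39.7 and 79.4 CPM in deficient mTEChi. All deficient libraries were lower (log2 fold change -1.03, SE 0.33, edgeR adjusted p = 0.0401). Its stalk partner Rplp2 had a log2 fold change of -0.68 that did not pass the test (edgeR adjusted p = 0.258).

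Rps20, a protein of the small-subunit head encoded at chr4:3831584-3835655, was at 158, 66.3 and 79.4 CPM in control and 49.4, 43.4 and 67.5 CPM in deficient mTEChi. The groups overlapped, deficient replicate 3 lying above control replicate 2. The log2 fold change was -1.02 (SE 0.33, edgeR adjusted p = 0.0421).

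Rps27l, a paralog of Rps27 known as a p53 target, lies at chr9:66944624-66949522. It was at 282, 141 and 168 CPM in control and 90.3, 80.5 and 147 CPM in deficient mTEChi. Here too deficient replicate 3 lay above control replicate 2, and the log2 fold change was -0.99 (SE 0.29, edgeR adjusted p = 0.0307).

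In each of these 4 genes control mTEChi replicate 1 was the highest library, and the calls ended without it. Then 0 members were called lower (1 at an unadjusted p under 0.05) and 1 higher (1.22%), Rpl4 at a log2 fold change of 0.46 (edgeR adjusted p = 0.0437), against 3.9% lower and 5.89% higher of all genes, and the members' median became -0.013. That library also had the most mitochondrial counts of the 12. Leaving out deficient replicate 1 or 2 also left 0 calls, with 6 and 5 members lower at an unadjusted p under 0.05, and leaving out control replicate 2 gave 7, all lower. For these fits the share of all genes is not given.

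Length went with the direction in mTEChi. Of the 33 members under 600 bases, 32 had a log2 fold change below 0 (median -0.61), and of the 48 longer ones 37 (median -0.22). Genes outside the family had medians of -0.57 under 600 bases, -0.42 from 600 to under 1000 bases, -0.03 from 1000 to under 2000 bases, 0.15 from 2000 to under 4000 bases and -0.05 above that, so the longest class was below the one before it. With the length trend removed from each library, 0 members were called lower (3 at an unadjusted p under 0.05) and 1 higher (1.23%), Rpl29 at 0.47 (edgeR adjusted p = 0.0257), against 8.21% lower and 11.1% higher of all genes. The members' median was then -0.0021. Mitochondrial transcripts took 3.19% to 8.93% of counts in control and 1.71% to 1.91% in deficient mTEChi, and the nuclear RNA Malat1 took 3.29% to 5.13% and 0.713% to 0.983%. The mTEChi markers summed to 7799 to 9956 CPM in control and 11376 to 14542 CPM in deficient mTEChi, 2 of 7 being called higher and 0 lower. Of 5 genes of thymic epithelium 2 were called higher and 0 lower. The 2 were Foxn1 (1.19, edgeR adjusted p = 0.00713) and Krt8 (0.57, edgeR adjusted p = 0.0422). Endothelial markers summed to 49.1 to 73.6 CPM in control and 123 to 378 CPM in deficient mTEChi, 5 of 7 being called higher. Fibroblast and pericyte markers summed to 293 to 367 and 621 to 822 CPM, 2 of 9 being called higher, with Pdgfra at 0 in deficient replicate 3. Their part in the members' values was not tested.

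**Figure D4:**
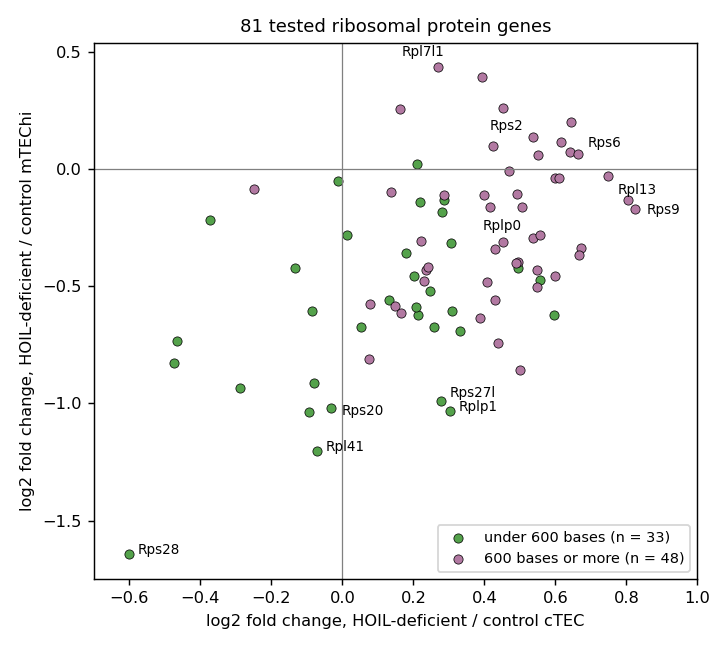
Each point is 1 of the 81 tested members, with the log2 fold change of deficient over control cells in cTECs on the horizontal axis and in mTEChi on the vertical axis, coloured by deposited length (33 under 600 bases, 48 longer). Most points are in the lower right quadrant, higher in deficient cTECs and lower in deficient mTEChi, with shorter genes lower down.

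The effects of Hoil loss in the 2 cell types were set against each other with an interaction contrast, mTEChi minus cTEC. Rplp0 alone was called, lower by 0.84 on the log2 scale (SE 0.22, edgeR adjusted p = 0.0317). In mTEChi it was at 520, 403 and 457 CPM in control and 402, 421 and 372 CPM in deficient cells. These groups overlapped, with a log2 change of -0.28 there (SE 0.16, edgeR adjusted p = 0.232), against 0.56 in cTECs. That 1 member is 1.23% of 81, against 3.87% of all genes called lower and 5.97% higher. At an unadjusted p under 0.05, 23 members were lower and 0 higher, and DESeq2 called 14 and limma-voom 1, all lower. The share of all genes is not given for these counts. The difference was below 0 in 76 of 81 members, with a median of -0.69 against 0.09 over all tested genes; genes outside the family under 600 bases had a median of -0.51. The members' median became -0.28 with the length trend removed and -0.40 without control mTEChi replicate 1. The call on Rplp0 held without control mTEChi replicate 1 (-0.74, adjusted p = 0.0431) and with the length trend removed (-0.69, adjusted p = 0.047). It also held without control cTEC replicate 1 or control mTEChi replicate 2, and ended when any of the other 9 libraries was left out, with adjusted p up to 0.124 over the alternatives.

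Rps9, Rpl13, Rps6 and Rps2, the other 4 genes called in cTECs, had interaction values of -0.99, -0.78, -0.60 and -0.40, none of which passed (edgeR adjusted p = 0.0582, 0.0968, 0.166 and 0.288). Whether their response differed between cell types was therefore not settled by the test.

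Most members were higher in normal medullary than in normal cortical cells. Control mTEChi against control cTECs gave 53 of 81 members called higher (65.4%) and 0 lower by edgeR, against 37.8% higher and 26.4% lower over all genes. At an unadjusted p under 0.05, 57 were higher and 1 lower, and DESeq2 and limma-voom called 64 and 50 higher and 0 lower. The share of all genes is not given for these counts. The median log2 fold change was 0.94 against 0.24 over all tested genes, and 79 of 81 were above 0, the exceptions being Rpl5 (-0.21, edgeR adjusted p = 0.361) and Rpl7l1 (-0.34, edgeR adjusted p = 0.0581). The libraries did not overlap in 45 members that were higher (55.6%) and in 1 that was lower, Rpl7l1 (1.23%), against 39.6% and 31.6% of all tested genes. Small-subunit genes were called in 22 of 31 cases (median 1.07) and large-subunit genes in 29 of 46 (median 0.84).

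Rps24, a small-subunit gene mutated in some patients with Diamond-Blackfan anaemia, had the largest fold change. It was at 17.3, 16.9 and 31.6 CPM in control cTECs and 105, 48.9 and 51.5 CPM in control mTEChi. The groups did not overlap (log2 fold change 1.78, SE 0.33, edgeR adjusted p = 0.000356). Rps24 lies at chr14:24490678-24496960.

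Rps12 was low throughout, at 2.49, 1.39 and 3.31 CPM in control cTECs and 9.52, 6.41 and 6.13 CPM in control mTEChi (log2 fold change 1.72, SE 0.47, edgeR adjusted p = 0.00519). Its groups were apart, and 89.5% of its windows are shared. Rpl41, at 46.4, 40.3 and 113 CPM in control cTECs against the 134 to 286 CPM given above, rose by 1.67 on the log2 scale (SE 0.41, edgeR adjusted p = 0.00272). Rplp1, at 30.9, 32.0 and 66.8 CPM in control cTECs, rose by 1.56 (SE 0.33, edgeR adjusted p = 0.001).

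Rpl38, whose loss in mice alters the pattern of the axial skeleton, was at 1.93, 1.64 and 3.41 CPM in control cTECs and 10.03, 4.24 and 4.63 CPM in control mTEChi. The groups did not overlap (log2 fold change 1.56, SE 0.58, edgeR adjusted p = 0.0297), although the counts behind these values are small. Rps23, a protein of the decoding centre, was at 6.26, 5.16 and 11.9 CPM in control cTECs and 30.9, 11.6 and 17.7 CPM in control mTEChi, where the groups overlapped (1.50, SE 0.40, adjusted p = 0.00497).

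Rps9 rose by 1.47 on the log2 scale (SE 0.22, edgeR adjusted p = 6.73e-05), its control mTEChi values being 368, 219 and 249 CPM against 80.2 to 127 CPM in control cTECs. Rpl21, a large-subunit gene, was at 11.7, 7.18 and 16.8 CPM in control cTECs and 44.5, 19.9 and 23.95 CPM in control mTEChi (1.43, SE 0.35, adjusted p = 0.00253). Both genes had control groups that did not overlap. Of these 8 genes, Rps24, Rps9 and Rpl21 were also called with the length trend removed. The calls on Rpl41, Rplp1, Rps12, Rpl38 and Rps23 then ended (0.57, 0.48, 0.70, 0.42 and 0.44, edgeR adjusted p = 0.123, 0.109, 0.156, 0.49 and 0.244). The call on Rpl38 also ended without control mTEChi replicate 1 (0.99, edgeR adjusted p = 0.181), control cTEC replicate 1 (adjusted p = 0.078) or control cTEC replicate 2 (adjusted p = 0.0942).

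In genes outside the family this comparison also went with length, while the medians of short and long members were alike. Genes outside the family had median log2 fold changes of 1.10 under 600 bases, 1.19 from 600 to under 1000 bases, 0.56 from 1000 to under 2000 bases, -0.11 from 2000 to under 4000 bases and -0.20 above that. Members under 600 bases had a median of 0.95 and longer members 0.93, and across members r with log2 length was -0.30. With the length trend removed, 10 members were called higher (12.3%) and 6 lower (7.41%), against 37.4% and 25.1% of all genes, and the members' median was 0.05. Of the 53 members called higher, 9 then had a log2 fold change below 0, and Rpl29 (-0.37, edgeR adjusted p = 0.0275) was then among the genes called lower. Those still higher included Rps15a (1.54, edgeR adjusted p = 0.00156), Rpl21 (1.32), Rpsa (1.29, edgeR adjusted p = 5.21e-05), Rps24 (0.92) and Rplp0 (0.64), and those lower Rpl36 (-1.04, edgeR adjusted p = 0.0101) and Rpl11 (-0.85, edgeR adjusted p = 0.00512). Without control mTEChi replicate 1, 35 of 82 members were called higher (42.7%) and 0 lower (1 at an unadjusted p under 0.05), against 35.3% and 23.1% of all genes, with a median of 0.61. Thymocyte markers were 138 to 217 CPM in control mTEChi and 1050 to 3790 CPM in control cTECs, all 12 being called lower; their part was not tested.

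**Figure D5:**
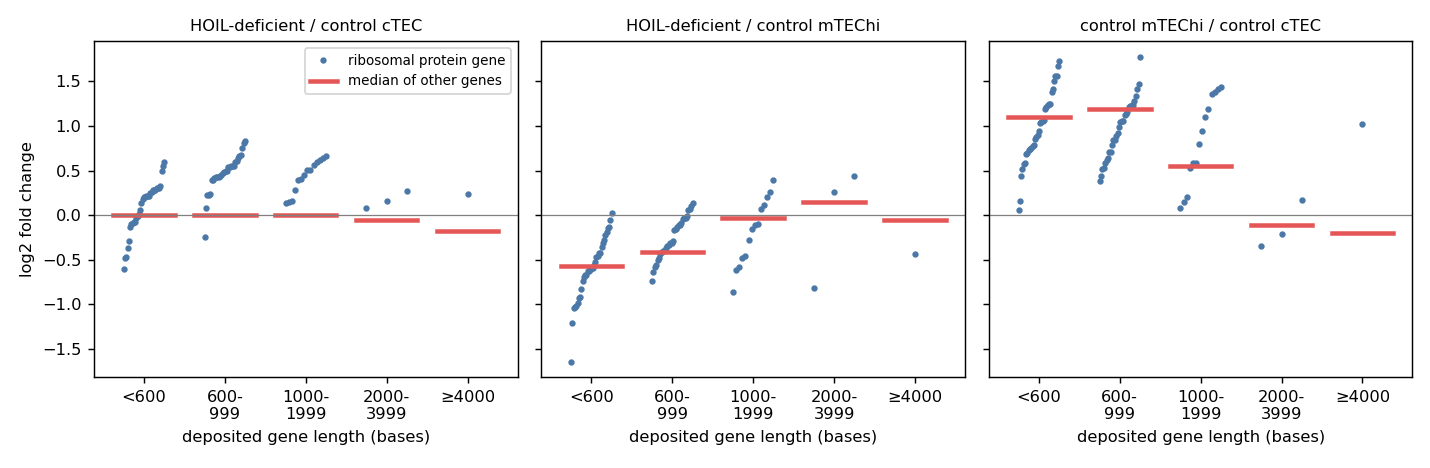
Log2 fold changes of the 81 tested members (points, sorted within each class) by deposited gene length in bases, for the 3 comparisons of 2 groups, with the median of all other tested genes in the same length class (bars). In mTEChi the bars rise from -0.57 in the shortest class to 0.15 at 2000 to under 4000 bases and are at -0.05 in the longest. Between control mTEChi and control cTECs they are at 1.10 in the shortest class and 1.19 in the next, and then fall to -0.20 in the longest. The members follow the bars in the shorter classes, while in cTECs the members of 600 to under 2000 bases, except Rpl37 (-0.25), lie above bars at 0. Those bars include genes not detected in cTECs, whose fitted change is 0. Of 1749 other genes of 600 to under 1000 bases, 817 were above 0 and 707 below. Of 4724 from 1000 to under 2000 bases, 2249 were above 0 and 2069 below.

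Members with known roles beyond the ribosome gave mixed values. Rpsa, also described as a laminin receptor precursor, was at 58.7 ± 7.71, 88.8 ± 1.75, 145 ± 17.9 and 136 ± 23.5 CPM in control cTECs, deficient cTECs, control mTEChi and deficient mTEChi (SD, n = 3). It was higher in control mTEChi than in control cTECs (log2 fold change 1.41, edgeR adjusted p = 1.58e-05) and had 0.51 in deficient cTECs (edgeR adjusted p = 0.0843). Rpl11, which with Rpl5 can bind the p53 regulator Mdm2, was at 14.7 ± 1.44, 15.5 ± 0.897, 15.2 ± 5.24 and 15.5 ± 2.14 CPM, with no call in the 4 comparisons. Rps19, the gene most often mutated in Diamond-Blackfan anaemia, was at 48.5 ± 16.3, 60.9 ± 10.6, 99.7 ± 21.2 and 78.8 ± 26.9 CPM and was called between the control groups (1.15, edgeR adjusted p = 0.0026). Rpl10a had -0.63 in deficient mTEChi (edgeR adjusted p = 0.0748) and 1.05 between the control groups (edgeR adjusted p = 0.00168).

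Of the 7 paralogs, 4 passed the filter. Rps27l was read far above Rps27 per length, by a ratio of 21.1 ± 2.67 in control cTECs, 31.0 ± 1.99 in deficient cTECs, 28.5 ± 6.26 in control mTEChi and 32.0 ± 13.1 in deficient mTEChi (SD, n = 3). Rps27 shares 60.7% of its windows with other genes and Rps27l 12%, so this ratio and the counting of shared reads cannot be told apart. Rps27 was at 5.16, 4.03 and 7.64 CPM in control cTECs and 9.93, 7.65 and 7.64 CPM in control mTEChi, with no call in the 4 comparisons.

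Rpl22l1 was read at a higher level relative to Rpl22, a protein needed for normal development of T cells, in control mTEChi than in control cTECs. The per-length ratio of Rpl22l1 to Rpl22 was 0.811 ± 0.119 in control cTECs, 1.24 ± 0.421 in deficient cTECs, 1.74 ± 0.302 in control mTEChi and 1.94 ± 0.243 in deficient mTEChi. Rpl22l1 was higher in control mTEChi than in control cTECs (log2 fold change 1.21, edgeR adjusted p = 0.00564), whereas Rpl22 had 0.17 (edgeR adjusted p = 0.652). Rpl22l1 is 477 bases long and Rpl22 2040, and other genes of those length classes had medians of 1.10 and -0.11 in that comparison. With the length trend removed Rpl22l1 had 0.10 and was not called (edgeR adjusted p = 0.737). Rpl7l1, which is 2606 bases long, had log2 fold changes of 0.27 in deficient cTECs and 0.44 in deficient mTEChi, neither of which passed (edgeR adjusted p = 0.274 and 0.0546). Its per-length ratio to Rpl7 was 0.410 ± 0.0799, 0.345 ± 0.0203, 0.194 ± 0.0755 and 0.258 ± 0.00755 in the same order. Rpl7l1 was at 115, 117 and 104 CPM in control cTECs and 64.1, 91.0 and 94.5 CPM in control mTEChi.

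Rpl32l was at 0.0991 ± 0.0178 of Rpl32 per length in control cTECs, and between 0.0961 and 0.107 in the other 3 groups. RefSeq calls this gene protein-coding, whereas the GENCODE annotation calls the same copy, at chr10:20208439-20209030, a processed pseudogene, so its reads are uncertain. The remaining 3 paralogs were near 0: Rpl3l, a muscle form, had 14, 0, 22 and 41 counts over the 3 libraries of each group in the same order. Rpl39l, known from testis, had 1, 0, 11 and 6 counts, and Rpl10l, also a testis gene, had 0, 0, 1 and 1. A group total of 0 allows up to 0.105 CPM in control cTECs and 0.0953 CPM in deficient cTECs, which is the level of 3 counts over the group and covers counting error only.

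Other genes of protein synthesis, taken from lists by role, did not all move as the ribosomal proteins did. All counts for these lists are from the main fit and were not repeated under the alternatives. Fau, which encodes a ribosomal protein fused to a ubiquitin-like protein, was higher in control mTEChi than in control cTECs (log2 fold change 1.46, edgeR adjusted p = 0.000831) and was called in no comparison of deficient with control cells. Among 19 translation factors with 5′ TOP mRNAs, 3 rose in deficient cTECs, against 6.06% of all genes, with a list median of 0.40. They were Hnrnpa1, an RNA-binding protein (log2 fold change 1.13, edgeR adjusted p = 0.000987), and the elongation factor genes Eef1d (0.67, edgeR adjusted p = 0.0277) and Eef1a1 (0.50, edgeR adjusted p = 0.0394). In deficient mTEChi, where 11.3% of all genes rose and 8.59% fell, 2 of the 19 rose and 3 fell, the latter including the poly(A)-binding protein gene Pabpc1 (-0.81, edgeR adjusted p = 0.00577) and Eef1b2 (-0.82, edgeR adjusted p = 0.0151).

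Of 41 ribosome assembly factors, whose products build the subunits in the nucleolus, 14 rose and 1 fell in deficient mTEChi (median 0.57), against the same 11.3% and 8.59% of all genes. Those that rose included Nop56 (1.30, edgeR adjusted p = 0.00169), Ftsj3 (1.26, edgeR adjusted p = 0.00085) and Dkc1 (0.92, edgeR adjusted p = 0.00539). Between control mTEChi and control cTECs, where 37.8% of all genes were higher and 26.4% lower, 4 were higher and 20 lower (median -0.47), and in deficient cTECs 1 was called, Ddx21 at 0.71 (edgeR adjusted p = 0.0497). These genes have a median length of 2476 bases, in the class where the other genes' medians also lay above 0 in mTEChi. Without control mTEChi replicate 1, 5.89% of all genes were called higher in deficient mTEChi, and the lists were not counted in that fit. Translation factors without known TOP mRNAs had 15 of 33 higher and 1 lower in deficient mTEChi, led by Eif5a (1.18, edgeR adjusted p = 0.000213), and 5 higher and 13 lower between the control groups.

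RNA polymerase I genes, which make ribosomal RNA, gave 1 of 20 higher and 2 lower in deficient mTEChi (11.3% and 8.59% of all genes), and 2 higher and 6 lower between the control groups (37.8% and 26.4%). Of 78 mitochondrial ribosomal proteins, 1 was called in deficient cTECs (Mrpl17, 0.50, edgeR adjusted p = 0.0215), and 5 were higher and 6 lower in deficient mTEChi. Between the control groups 23 of the 78 were higher and 10 lower, against 37.8% and 26.4% of all genes.

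Among 20 regulators of ribosomal protein synthesis, 2 rose and 2 fell in deficient cTECs, against 6.06% and 6.02% of all genes. The TOP mRNA-binding protein gene Larp1 fell by 0.83 on the log2 scale (edgeR adjusted p = 0.00843), from 137 ± 23.6 to 82.0 ± 13.3 CPM (SD, n = 3). Rptor, the mTORC1 scaffold, fell by 1.22 (edgeR adjusted p = 0.0253), and Deptor, an inhibitor of mTOR, rose by 1.44 (edgeR adjusted p = 0.017). In deficient mTEChi 3 of the 20 rose, against 11.3% of all genes, among them Trp53 (0.91, edgeR adjusted p = 0.0071), which encodes p53.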

How the data were processed

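RNA of sorted cells was amplified with the SMART-Seq v4 kit and sequenced in 75-base read pairs from Nextera XT libraries, per the labels' protocols. The authors deposited whole-number counts per Entrez gene, with a gene length in another column, made with featureCounts on mm10, per the submitters' processing notes. The aligner, strandedness and treatment of multiply matching reads were not given in the sources used here. A joined table of the same counts was not used. Symbols, positions and promoters came from RefSeq (GRCm38.p6), and 25275 of 27179 IDs matched; transcripts for window sharing were GENCODE M21, taking the one closest to the deposited length (83 of 84 members).

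The members and lists were chosen with earlier results of these data known. Counts were fitted with edgeR 4.0.16 in R 4.3.3 (robust quasi-likelihood, TMM factors, filterByExpr) with all 12 libraries and 1 coefficient per group; 19398 genes were tested, and genes not detected in a cell type have a fitted change of 0 there. Of 84 members 81 passed the filter. Alternatives used DESeq2 1.42.0, limma 3.58.1, other scalings and filters, left-out libraries, a replicate block, and a per-library loess trend (span 0.5) of counts on log2 length as offset. Standard errors were derived from the F statistic. Descriptive log2 CPM used a pseudocount of 0.5. The main edgeR fit was run on simulated counts with known changes in deficient cTECs, and the other steps were not tested in this way. Members named were those called (at most 8 per direction by size), paralogs with partners, members of known role, members among the 5 highest and the 3 lowest levels, and up to 3 genes per list and comparison by p. Rpl29, Rps4x, Rps15a, Rpl36 and Rpl3 were named after their values were seen. Values of some genes that this rule names are not reported here.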

Additional observations from a re-analysis of the deposited data

Results flagged for a closer look

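The effect of Hoil loss on Rplp0 differed between the cell types by a test of the difference itself, at -0.84 on the log2 scale (mTEChi minus cTEC, SE 0.22, edgeR adjusted p = 0.0317). Its log2 fold change was 0.56 in cTECs and -0.28 in mTEChi. The call held in 14 of 25 alternatives. It ended with male libraries only and when any deficient library was left out, among others. Rplp0 was the only member called lower on the difference (1.23%), against 3.87% of all genes.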

How the results depend on the processing

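The members called between deficient and control cells, and the 8 with the largest change between control groups, kept their direction under every alternative run. The counts of calls moved, and those below pool both directions unless stated. Apart from the main fit, shares of all genes were given above only with the length trend removed and without control mTEChi replicate 1. They cover deficient mTEChi and the control groups. The other counts, here and in the next paragraph, lack a baseline. In deficient cTECs the 5 calls became 12 with library totals alone and with DESeq2, 0 with male libraries only, 3 with the length trend removed together with the replicate block, and 0 to 6 when each library was left out. The 6 calls, without control replicate 1, were 5 higher and 1 lower. In deficient mTEChi the 4 calls became 2 with library totals alone (1 in each direction), 7 with DESeq2, 1 with the length trend removed, 1 with the trend removed and the replicate block, and 0 to 7 with a library left out. The 1 call on the difference became 5 with RLE factors, 6 with upper-quartile factors, 4 with library totals, 3 when scaled without mitochondrial genes and Malat1, 3 without the filter, 14 with DESeq2, 0 with male libraries only, and 0 to 8 with a library left out. The single call without deficient mTEChi replicate 2 was higher, opposite to the main call. Without control cTEC replicate 1, 1 call was higher and 3 were lower. The 53 calls between the control groups became 16 with the length trend removed, with or without the block, and 35 to 58 with a library left out. The cause of these shifts was not tested.

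Over all pairs of groups, same-numbered libraries had r from -0.20 to 0.12 between their deviations from the group means. Between deficient cTECs and deficient mTEChi, r was 0.060, 0.105 and 0.043 for replicates 1, 2 and 3, and from -0.078 to 0.031 for unlike numbers. Between the control groups it was -0.00072, 0.12 and -0.048 for like numbers. These values do not settle whether like numbers are pairs, and the main fit did not take them as such. With the replicate block there were 5, 4, 2 and 56 calls in the 4 comparisons; with the block nested in genotype, 3 on the difference and 53 between control groups; and with block and length trend, 0 on the difference.

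Per length, the members' share was 0.850%, 1.12%, 1.21% and 1.09% in control cTECs, deficient cTECs, control mTEChi and deficient mTEChi. With TMM-scaled totals, the share in deficient cTECs was 0.531%, and the median member was at 26.5 CPM there. Depth limits the 3 untested paralogs and members of a few CPM, such as Rps28 and Rpl38.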
